A study of Homo sapiens with 9 samples.

Results

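The 3 arrays labelled TFPIβ were set against the 3 arrays labelled TFPIα, out of 9 arrays in the series, in order to see where cells given one isoform of tissue factor pathway inhibitor (TFPI) differed in mRNA from cells given the other. The remaining 3 arrays, labelled empty vector, entered the fit only to estimate the spread. RNA from SK-BR-3, a human breast adenocarcinoma cell line that the labels call luminal-like, was hybridized after stable transfection with a pTOPO vector that carried TFPIα cDNA, TFPIβ cDNA or no insert. All groups shared the same vector backbone, medium and drug selection, which was puromycin according to the labels and neomycin according to the methods of the study. Each group was 1 stable cell pool from which RNA was isolated independently 3 times. The isoform and the pool that carries it therefore cannot be told apart, and every p-value measures spread between isolations, not between pools. In the main fit this is the spread left after differences shared by arrays of the same replicate number are taken out. A probe set, the group of oligonucleotides whose combined signal stands for 1 transcript, was kept when its highest log2 signal over the 9 arrays was at least 5. This left 17482 of 33297 probe sets. Of those kept, 11838 were annotated with 1 gene symbol, 1150 with more than 1 and 4494 without any, and 11232 genes had a representative probe set among them. All values are log2 signals, and all differences are TFPIβ minus TFPIα on the log2 scale.

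TFPI is the inhibitor that shuts off the tissue factor and factor VIIa complex at the start of blood coagulation. TFPIα is the secreted form with a basic tail that binds heparan sulfate, whereas TFPIβ ends in a glycosylphosphatidylinositol (GPI) anchor and stays on the cell surface. In dividing cells, genes of DNA replication are switched on by E2F factors as cells enter S phase, histone genes are transcribed together with replication, and mitotic genes follow under promoters that often hold a CHR element.

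TFPI itself gave log2 signals of 5.66, 5.81 and 5.51 in the arrays labelled TFPIα (replicates 1, 2 and 3), 5.55, 5.79 and 5.81 in those labelled TFPIβ, and 5.81, 6.48 and 6.45 in those labelled empty vector. The TFPI probe set gives 1 value for both isoforms and was not higher in either TFPI group than in the empty vector arrays. According to the study, the transfected cDNA held the coding sequence alone and was missed by array probes that read the untranslated ends. The study also reports TFPI as higher in both TFPI groups when its signal was computed without weak probes. It reports the same by qRT-PCR and by an assay of TFPI antigen. The probe positions were not analysed here, so this signal is no check of the labels. The difference between the TFPI groups was 0.06 (SE 0.15). The markers of the cell line were mixed. Of 16 luminal markers 11 passed the filter. Of these, KRT18, KRT7, XBP1 and MUC1 were bright, with medians of 10.55, 10.47, 9.15 and 8.28 over the 9 arrays. The others that passed had medians near or below the filter level. These were 5.85 for KRT8, 5.26 for GATA3, 4.84 for KRT19 and TFF1, 4.81 for FOXA1, 4.53 for AGR2 and 4.46 for CDH1. ESR1, PGR, ERBB3, SPDEF and TFF3 did not pass the filter, of which ESR1 and PGR encode hormone receptors that SK-BR-3 is known to lack. ERBB2, amplified in SK-BR-3, had a median of 5.88, and the measured members of its amplicon list ran from 5.15 (GRB7) to 8.36 (PSMD3). The basal keratins KRT5 and KRT14 had medians of 12.68 and 12.54. The other measured basal markers were S100A2 (10.55), CAV1 (10.17), ITGA6 (9.45), ITGB4 (9.01), CDH3 (7.98), DSG3 (7.97) and EGFR (7.30). The ERBB2 level and the levels of the basal list go against the cell line label. Directions below belong to the arrays as labelled. Between the labelled TFPIβ and TFPIα arrays, 2 of 11 measured luminal markers and 1 of 9 basal markers reached an unadjusted p under 0.05, in each case higher. Over all probe sets 6.19% were higher at that threshold, and lists this short cannot be told from that share by their counts.

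The arrays did not sort fully by label. In signals over all probe sets, TFPIβ replicate 3 lay nearest to TFPIα replicate 3 (r = 0.987), TFPIβ replicate 1 nearest to TFPIα replicate 1 (r = 0.985), and TFPIβ replicate 2 nearest to empty vector replicate 2 (r = 0.984). TFPIα replicates 2 and 3 lay nearest to each other (r = 0.990), empty vector replicate 3 nearest to empty vector replicate 1 (r = 0.985), and TFPIα replicate 2 and TFPIβ replicate 2 were among the least alike (r = 0.955), as a description over 17482 probe sets that are not independent. On the first principal component, with 45.5% of the variance, the TFPIα arrays had scores of 8.24, 26.16 and 35.23 and the TFPIβ arrays −17.51, −38.39 and 26.80. TFPIβ was thus lower in each pair, by the smallest step in pair 3. The SD of the differences over probe sets was 0.300 in pair 1, 0.534 in pair 2 and 0.283 in pair 3. At least 2-fold lower signals with TFPIβ were counted for 140, 712 and 69 probe sets in the 3 pairs, and at least 2-fold higher signals for 59, 378 and 118.

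**Figure D1:**
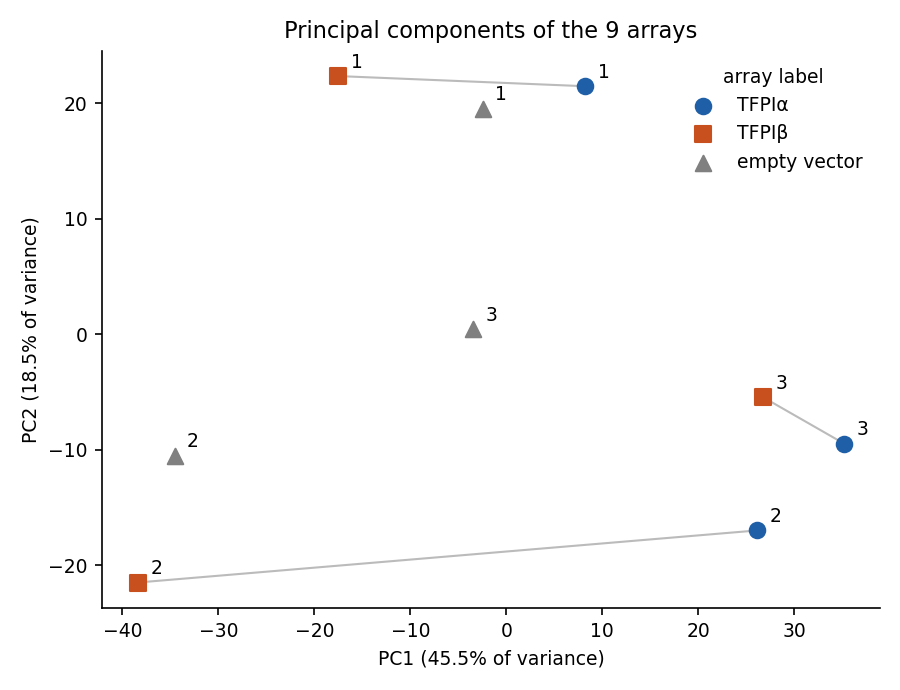
Principal components of the log2 signals of the 9 arrays, with PC1 (45.5% of variance) on the horizontal and PC2 (18.5%) on the vertical axis. Colours and shapes give the array label, numbers give the replicate, and gray lines join the TFPIα and TFPIβ arrays of a pair, which are farthest apart in pair 2 (26.16 against −38.39 on PC1).

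A call needed both a 2-fold difference and a p under 0.05 after Benjamini-Hochberg adjustment, and 1 probe set met it between the isoforms, which is 0.00572% of those tested. The called probe set, number 7893355 of the array, has no gene name in the annotation used. Whether it reads a gene or serves as a control of the array was not determined here. Its log2 signals were 2.65, 2.92 and 1.62 with TFPIα, 4.43, 5.18 and 3.91 with TFPIβ, and 3.73, 4.65 and 3.08 with empty vector. The TFPIα arrays were all below the other 6, yet the signal passed the filter only through TFPIβ replicate 2. The difference was 2.12 (SE 0.138, limma adjusted p = 0.0336), and the next probe set had an adjusted p of 0.232. The call was absent without the replicate block, where the lowest adjusted p was 0.532. No named gene was called, so the genes below are ranked by size and by an unadjusted p, and none of them passed the test across all probe sets.

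At an unadjusted p under 0.05, 1082 probe sets (6.19%) were higher with TFPIβ and 1610 (9.21%) were lower. Fitted alone, the 11838 probe sets with 1 gene symbol gave 510 higher and 1394 lower. Named genes were thus lower more often, and higher less often, than the shares over all probe sets that stand beside the lists below. With a fold change of at least 2 as well, 28 (0.160%) were higher and 123 (0.704%) were lower. Of the 123 lower probe sets 114 carried 1 gene symbol, and of the 28 higher ones 14 did. The excess of lower over higher ones rested on replicate 2 and largely also on replicate 1. Without replicate 2 in any group 17 were higher and 14 lower. The counts were 19 and 17 without TFPIα replicate 2, and 17 and 20 without TFPIβ replicate 2. They were 82 and 95 without replicate 1 in any group, 41 and 49 without TFPIβ replicate 1, and 71 and 319 without replicate 3 in any group. A one-way model without the replicate block gave 9 higher and 8 lower. Over all probe sets the median difference was −0.001, with 49.7% above 0. The same sign in all 3 pairs was found for 3508 probe sets that were higher (20.1%) and 4011 that were lower (22.9%). The 3 TFPIβ values lay entirely above the 3 TFPIα values for 6.15% of probe sets and entirely below them for 7.10%. For 75 of the 123 lower probe sets the mean of the empty vector arrays was below both TFPI groups, and for 47 it was between them.

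**Figure D2:**
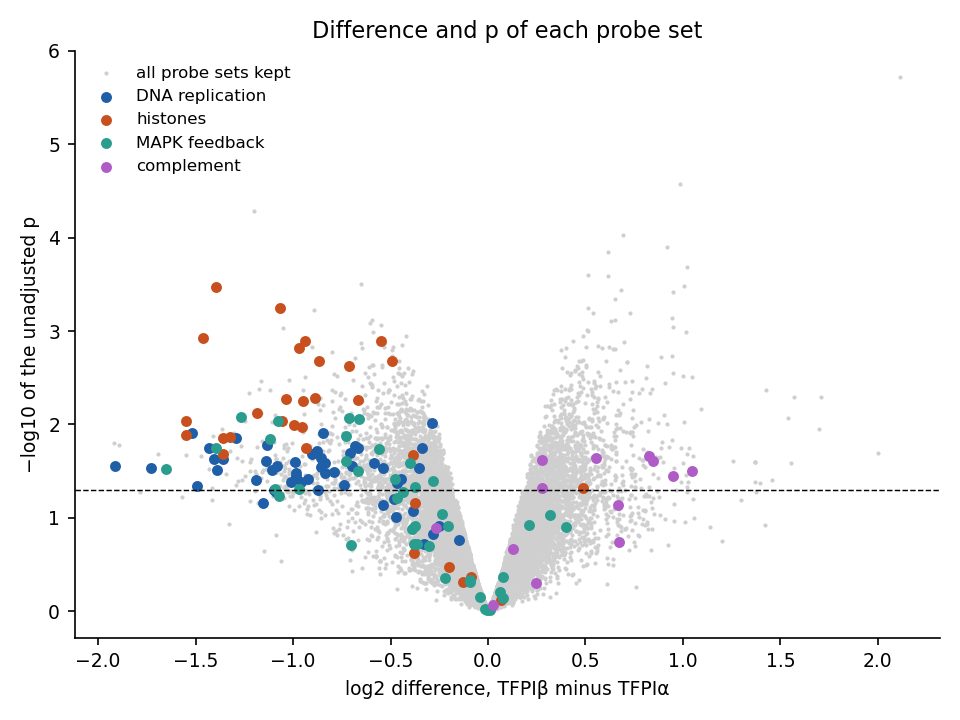
The log2 difference (TFPIβ minus TFPIα, horizontal axis) and −log10 of the unadjusted p (vertical axis) of each of the 17482 probe sets in gray, with members of 4 gene lists in colour and an unadjusted p of 0.05 as the dashed line. DNA replication and histone genes lie on the left, complement genes mostly on the right, and the isolated point at 2.12 is the only probe set called.

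Genes of DNA replication and origin licensing were lower in the arrays labelled TFPIβ. All 52 measured members had a difference below 0, from −1.91 for CLSPN to −0.15 for RPA3, and the median was −0.86. The unadjusted p was under 0.05 for 40 of them, each lower, against 9.21% of all probe sets, and 18 were at least 2-fold lower. None passed the adjusted threshold. The mean log2 signal of the list was 7.59, 7.67 and 7.86 in the TFPIα arrays, 6.68, 6.02 and 7.80 in the TFPIβ arrays and 6.91, 6.19 and 6.70 in the empty vector arrays. TFPIβ replicates 1 and 2 were thus near the empty vector arrays of their number, and TFPIβ replicate 3 was near the TFPIα arrays. The pair medians were −0.89, −1.62 and −0.04, and the number of members below 0 was 52, 52 and 34 in pairs 1, 2 and 3.

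CLSPN, the adaptor by which ATR activates CHK1 at stalled forks, had log2 signals of 6.63, 7.04 and 7.29 with TFPIα and 4.30, 3.68 and 7.25 with TFPIβ (difference −1.91, SE 0.684). DTL, the substrate receptor that directs CDT1 to degradation during S phase, gave 8.16, 8.32 and 8.70 against 6.21, 4.74 and 8.55 (−1.89, SE 0.596). In both genes the groups overlapped because of TFPIβ replicate 3. CDC6, which loads the MCM helicase on origins, gave 8.48, 8.59 and 9.0 against 7.01, 5.15 and 8.74 (−1.73, SE 0.626). The helicase subunit MCM5 gave 8.38, 8.20 and 8.53 against 6.99, 5.90 and 8.35 (−1.29, SE 0.391). GINS1, a subunit of the complex that activates the helicase, was lower in every TFPIβ array than in every TFPIα array, at 6.51, 5.14 and 7.78 against 7.87, 7.97 and 8.15 (−1.52, SE 0.446). RFC1, the large subunit of the clamp loader, differed by −0.29 (SE 0.081) with groups that did not overlap, at 7.63, 7.55 and 7.84 against 8.02, 7.87 and 8.0. The gene with the lowest difference of all those named, FAM111B, gave 7.06, 7.0 and 7.64 against 4.83, 3.80 and 7.31 (−1.92, SE 0.595). EXO1, an exonuclease of DNA repair, differed by −1.55 (SE 0.518), and ESCO2, which acetylates cohesin in S phase, by −1.47. Each of these genes had an adjusted p of 0.320 in limma.

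Mitotic genes were lower in pairs 1 and 2 and level in pair 3. Of 63 measured members of the mitosis and G2/M list, 62 had a difference below 0 and 23 were at least 2-fold lower, with a median of −0.91. The unadjusted p was under 0.05 for 33, each lower, against 9.21% of all probe sets. The list mean was 7.98, 7.99 and 7.93 with TFPIα, 7.39, 5.85 and 7.97 with TFPIβ and 7.41, 6.33 and 7.46 with empty vector, and the pair medians were −0.55, −2.14 and 0.03. NCAPH, a condensin subunit, differed by −1.22 (SE 0.427), the kinase MELK by −1.22 (SE 0.415), the spindle motor KIF15 by −1.18 (SE 0.377) and the separase ESPL1 by −0.74. NCAPH was the one of these 4 whose groups did not overlap, at 7.13, 7.05 and 7.0 against 6.12, 4.47 and 6.93.

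Both cell cycle lists rested on pairs 1 and 2. Without replicate 2 in any group, 0 of the 52 replication genes and 2 of the 63 mitotic genes had an unadjusted p under 0.05 and were lower, and the medians were −0.48 and −0.27. Without replicate 1 in any group the counts were 2 and 0. The single arrays acted alike, with 2 and 0 left without TFPIα replicate 2 or without TFPIβ replicate 2, 3 and 2 without TFPIβ replicate 1, and 22 and 18 without TFPIα replicate 1. Without an empty vector array the mitotic count was 13, 11 or 7, and that of replication stayed at 30 or more. Without TFPIβ replicate 3, by contrast, the counts were 51 and 59. Without the replicate block they were 11 and 0, and with only the TFPIβ and TFPIα arrays in the fit they were 29 and 2.

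Replication-dependent histone genes, which encode the core histones made in S phase, had a lower median in each pair. Of 31 measured members 29 were below 0, 25 were lower in all 3 pairs against 22.9% of all probe sets, and 11 were at least 2-fold lower. The median was −0.94, and the unadjusted p was under 0.05 for 24 that were lower, against 9.21% of all probe sets, and 1 that was higher, H2BC12. H2BC11 passed the filter through the TFPIα arrays alone. The list mean was 7.64, 7.17 and 7.90 with TFPIα, 6.84, 6.03 and 7.39 with TFPIβ and 6.64, 6.23 and 6.55 with empty vector, with pair medians of −0.86, −1.35 and −0.44. In pair 3, 30 of the 31 members were below 0. The count of 24 lower members was 17 without replicate 1, 18 without replicate 2, 23 without replicate 3 and 11 without the replicate block, and 19 to 24 when any single array was left out. Histone genes are near copies of each other, so signals may be shared between members and the 31 values are not independent.

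H3C8 gave 6.72, 6.22 and 6.84 with TFPIα, 5.71, 4.22 and 5.67 with TFPIβ and 5.67, 4.71 and 5.27 with empty vector. Every TFPIβ value was below every TFPIα value, and the difference was −1.39 (SE 0.207). H4C4 likewise did not overlap, at 7.13, 6.68 and 7.49 against 6.32, 5.24 and 6.54 (−1.06, SE 0.173). H3C1 gave 7.18, 6.78 and 7.82 against 5.96, 4.62 and 6.82 (−1.46, SE 0.270), and H4C5 gave 6.98, 6.32 and 6.81 against 6.36, 5.78 and 6.32 (−0.55, SE 0.103). H2BC14 and H2AC4 both had a difference of −1.55, with pair 3 at −0.30 and −0.52. All 6 had an adjusted p of 0.320.

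**Figure D3:**
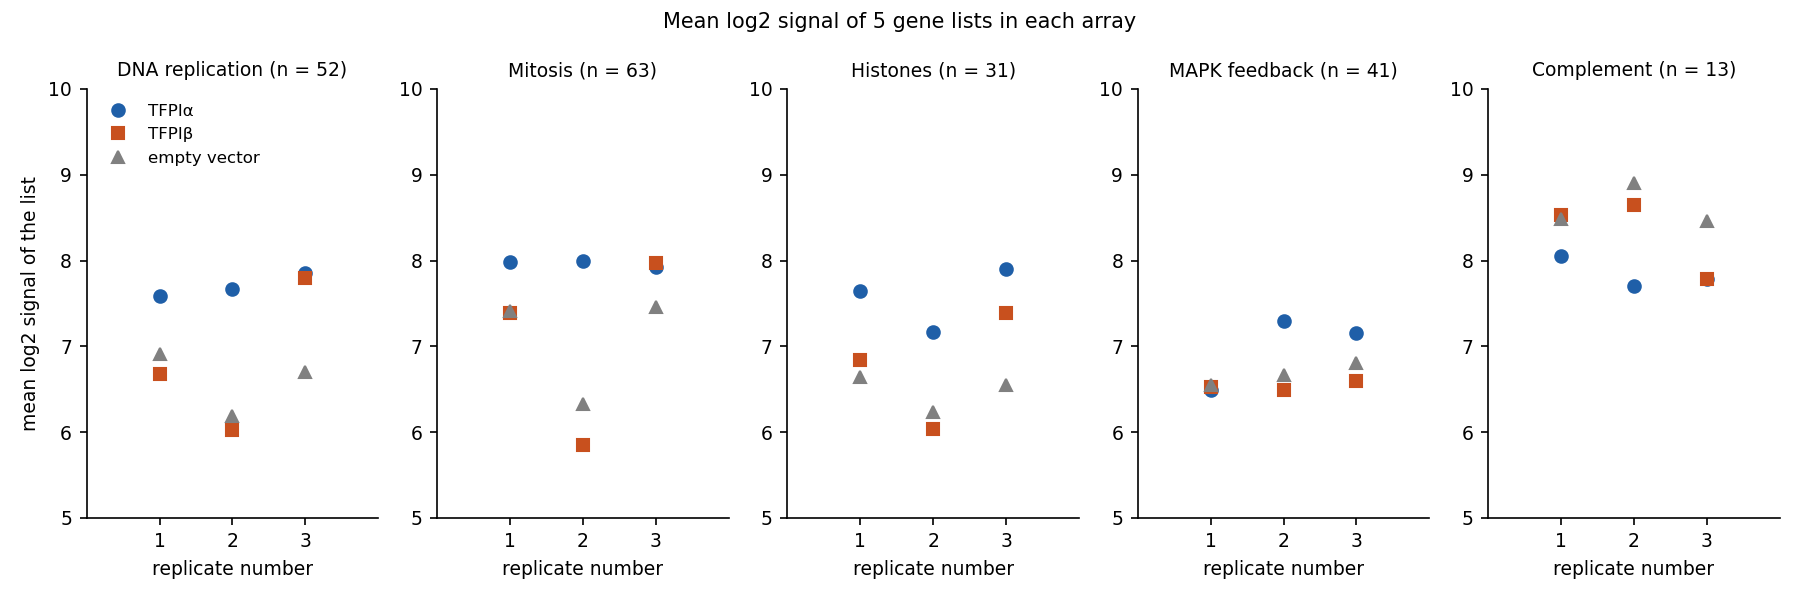
Mean log2 signal (vertical axis) of the measured members of 5 gene lists in each of the 9 arrays, by replicate number (horizontal axis) and array label (colour and shape). The TFPIβ array of replicate 3 reaches the TFPIα level in DNA replication (7.80 against 7.86), mitosis and complement but is lower in histones (7.39 against 7.90) and MAPK feedback genes, and TFPIα replicate 1 is at the level of the other labels in MAPK feedback genes (6.49).

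Promoter sequence from RefSeq (GRCh38.p14) was matched by symbol for 46 of the replication, 53 of the mitotic and 28 of the histone genes, using the first promoter listed for a gene. The 250 bases before the gene start were searched on both strands for an E2F element (TTTCCCGC, TTTCGCGC, TTTGCCGC or TTTGGCGC), a CHR element (TTTGAA), the histone octamer (ATTTGCAT), a CCAAT box (CCAAT) and a TATA box (TATAAA). Each was counted separately, so that matches in a promoter may overlap. The stretches below are shown because they carry the element assigned to each list, which was E2F for replication, CHR for mitosis and the octamer for histones. They were chosen for a low difference, after their values were seen, from members with 30 bases on either side of a match. Not every such member entered the choice, so those shown need not be the lowest of their list. The capitals mark the match.
MCM6, E2F element, chr2:135876492-135876559, minus strand: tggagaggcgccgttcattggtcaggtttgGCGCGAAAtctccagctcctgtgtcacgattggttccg
POLA2, E2F element, chr11:65261879-65261946, plus strand: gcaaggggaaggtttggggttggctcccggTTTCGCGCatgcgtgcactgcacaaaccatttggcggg
KIF23, CHR element, chr15:69414264-69414329, plus strand: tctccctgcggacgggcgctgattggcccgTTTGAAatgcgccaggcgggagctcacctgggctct
MKI67, CHR element, chr10:128126435-128126500, minus strand: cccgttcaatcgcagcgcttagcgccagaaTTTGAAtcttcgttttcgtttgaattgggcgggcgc
H2BC14, histone octamer, chr6:27814944-27815011, plus strand: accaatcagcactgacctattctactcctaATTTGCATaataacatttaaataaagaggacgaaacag
H2AC4, histone octamer, chr6:26033699-26033766, minus strand: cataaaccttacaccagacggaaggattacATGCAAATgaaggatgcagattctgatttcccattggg

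An E2F element was found before 13 of 46 replication genes (28.3%), 4 of 53 mitotic genes (7.50%) and 6 of 28 histone genes (21.4%), against 2.80% of 27305 promoters and 4.70% of the 9059 measured genes that were matched. A CHR element stood before 24 of the 53 mitotic genes (45.3%) and 8.40% of measured genes, and before 13.6% of all promoters. The octamer stood before 9 of 28 histone genes (32.1%) and 1.20% of measured genes (1.70% of all promoters), and before none of the replication or mitotic genes. A TATA box was found before 21 of 28 histone genes (75.0%) and 5.80% of measured genes (11.1% of all promoters), and a CCAAT box before 23 of 28 (82.1%) and 35.0% (33.0% of all promoters). The CCAAT box also stood before 71.7% of the mitotic and 58.7% of the replication genes, and the CHR element before 32.1% of the histone genes. Within a list, the median difference was −0.92 for the 13 replication genes with an E2F element and −0.85 for the others, −0.98 and −0.88 for mitotic genes with and without a CHR element, and −0.87 and −0.97 for histone genes with and without the octamer. The share lower at an unadjusted p under 0.05 was 61.5% of replication genes with an E2F element and 84.8% of those without, 54.2% and 51.7% of mitotic genes with and without a CHR element, and 66.7% and 84.2% of histone genes with and without the octamer. The difference was −1.39 for MCM6, a helicase subunit, −1.13 for POLA2, a subunit of the primase complex, −1.19 for the motor protein KIF23 and −1.16 for MKI67, which encodes the Ki-67 antigen. Over all 9059 measured genes, those with an E2F element had a median of −0.08 and those without one −0.03, and 16.3% and 11.4% were lower at an unadjusted p under 0.05. These are matches of letters and not sites shown to be bound.

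Genes that set the entry into S phase were more often lower than higher. The list of G1 cyclins, CDK inhibitors and E2F factors had 25 measured members and a median of −0.31. At an unadjusted p under 0.05, 8 were lower and 1 was higher, against 9.21% and 6.19% of all probe sets. The pair medians were −0.21, −0.46 and −0.03. E2F7, a repressor of E2F target genes, gave 6.39, 6.88 and 6.94 with TFPIα and 5.38, 4.75 and 6.41 with TFPIβ (−1.23, SE 0.294). The kinase CDK2 differed by −1.01 (SE 0.313) and cyclin D1 (CCND1) by −0.80 (SE 0.236). The higher member was CDKN1C, an inhibitor of cyclin-dependent kinases, at 6.98, 7.12 and 6.73 with TFPIβ against 6.72, 6.48 and 6.29 with TFPIα (0.45, SE 0.129), and its groups did not overlap.

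Immediate early genes and feedback inhibitors of the MAPK pathway had a lower median with TFPIβ in pairs 2 and 3 but not in pair 1. Of 41 measured members, 17 were lower and 0 were higher at an unadjusted p under 0.05, against 9.21% and 6.19% of all probe sets. The number of members below 0 was 18, 35 and 36 in pairs 1, 2 and 3, and 17 were lower in all 3 pairs, against 22.9% of all probe sets. ATF3 and NR4A2 passed the filter through the TFPIα arrays alone. The median was −0.38, with pair medians of 0.08, −0.65 and −0.46. The list mean was 6.49, 7.30 and 7.16 in the TFPIα arrays, against 6.52, 6.49 and 6.60 in the TFPIβ arrays and 6.55, 6.66 and 6.81 in the empty vector arrays, so that TFPIα replicate 1 was at the level of the other labels. The number of lower members was 2 without replicate 2, 5 without replicate 3, 4 without TFPIβ replicate 2, 7 and 9 without TFPIα replicates 2 and 3, 11 without TFPIβ replicate 3, 26 without TFPIα replicate 1 and 10 without the replicate block.

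DUSP6, the phosphatase that inactivates ERK, gave 5.36, 9.07 and 9.20 with TFPIα, 5.17, 5.73 and 7.76 with TFPIβ and 6.35, 6.97 and 8.01 with empty vector (difference −1.65, SE 0.602). EGR1, an immediate early transcription factor, gave 6.98, 8.77 and 8.44 against 6.72, 7.12 and 6.55 (−1.27, SE 0.342). The Sprouty genes, which encode inhibitors of receptor tyrosine kinase signalling, differed by −1.08 (SPRY4, SE 0.298) and −0.71 (SPRY2, SE 0.193), and the phosphatase gene DUSP7 by −0.66 (SE 0.180). In all 5 genes the smallest step was that of pair 1, between −0.18 and −0.44. The pairs thus ranked differently here than in the cell cycle lists, where pair 3 had the smallest step.

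Complement genes were higher in the arrays labelled TFPIβ than in those labelled TFPIα in pairs 1 and 2. The list mean was 8.05, 7.70 and 7.78 with TFPIα, 8.53, 8.65 and 7.79 with TFPIβ and 8.49, 8.90 and 8.46 with empty vector. The TFPIα arrays and TFPIβ replicate 3 were thus below all empty vector arrays, and TFPIβ replicates 1 and 2 were near them. Of 13 measured members 12 were above 0, 7 were higher at an unadjusted p under 0.05 against 6.19% of all probe sets, and 0 were lower, with a median of 0.55 and pair medians of 0.48, 0.84 and 0.02. C1R, a protease that starts the classical pathway, gave 8.91, 8.26 and 8.64 with TFPIα, 10.01, 10.27 and 8.68 with TFPIβ and 9.70, 10.61 and 9.75 with empty vector (1.05, SE 0.385). Its relative C1RL differed by 0.84 (SE 0.292) and the anaphylatoxin receptor gene C5AR1 by 0.55 (SE 0.188). For CFI, the protease that cleaves C3b, and CFD, which activates the alternative pathway, the groups did not overlap. CFI gave 4.55, 4.75 and 4.23 with TFPIβ against 4.07, 3.47 and 3.50 with TFPIα (0.83, SE 0.278) and passed the filter through the empty vector arrays alone, and CFD differed by 0.28 (SE 0.096). The count of higher members was 0 without replicate 2, 3 without replicate 1, 0 without TFPIβ replicate 1 or 2, 1 without TFPIα replicate 2 and 4 with only the TFPIβ and TFPIα arrays.

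The 12 genes with the highest differences had their smallest step in pair 3 or pair 1. CRYAB, a small heat shock protein, gave 4.96, 4.38 and 4.07 with TFPIα, 6.28, 7.59 and 4.63 with TFPIβ and 4.05, 5.51 and 3.70 with empty vector (1.70, SE 0.488). IFITM1, an interferon-induced membrane protein, gave 5.96, 4.57 and 4.70 against 7.03, 7.48 and 5.44 (1.57, SE 0.382). CASP14, the caspase of epidermal differentiation, gave 4.50, 3.85 and 3.73 against 6.20, 6.79 and 3.75 (1.55, SE 0.546), with a step of 0.02 in pair 3. The other 9 of the 12 highest were SELENOP, ADH1B, FBXO32, CD24, MAP2K6, GPNMB, C1R, PDGFD and SLC9A9, from 1.46 down to 1.02. GPNMB, a transmembrane glycoprotein, gave 4.17, 4.66 and 3.35 against 5.25, 6.05 and 4.02 (1.05, SE 0.232), and it was the one of the 12 that passed the filter through the TFPIβ arrays alone. In all of these 12 genes the TFPIα and TFPIβ values overlapped between groups although the sign was the same in the 3 pairs.

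**Figure D4:**
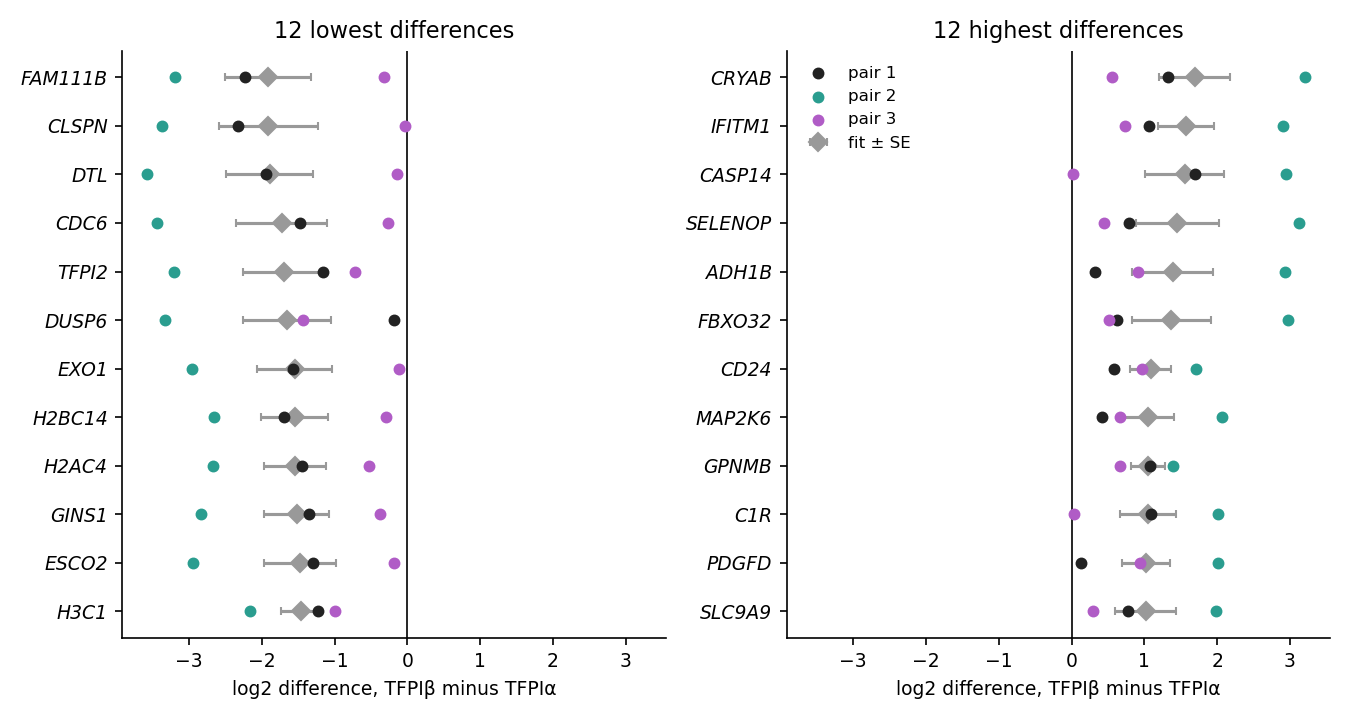
Log2 differences (TFPIβ minus TFPIα, horizontal axes) of the 12 genes with the lowest and the 12 with the highest difference among genes with an unadjusted p under 0.05 and 1 sign in all pairs. Coloured points are the 3 pairs and gray diamonds with bars are the fitted difference ± SE; pair 2 is the most extreme in every gene shown, at −3.58 for DTL and 3.21 for CRYAB.

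ATP1B1 and ITGA2 differed by nearly the same step in each pair. ATP1B1, the β subunit of the sodium pump, gave 7.36, 7.48 and 7.43 with TFPIα, 6.78, 6.82 and 6.82 with TFPIβ and 5.61, 5.77 and 5.02 with empty vector, with steps of −0.58, −0.66 and −0.61 (−0.62, SE 0.164). ITGA2, the collagen-binding integrin α2, gave 5.75, 6.35 and 6.93 with TFPIα and 5.20, 5.63 and 6.24 with TFPIβ, with steps of −0.54, −0.71 and −0.70 (−0.65, SE 0.096). The ITGA2 groups overlapped because both groups differed between replicate numbers, and without the replicate block its SE was 0.364. Other genes had a small SE with steps that varied more. EGLN3, an oxygen-sensing prolyl hydroxylase, differed by −0.60 (SE 0.102), with steps of −0.76, −0.34 and −0.68. CSF3, which encodes the granulocyte colony-stimulating factor, gave 6.50, 6.69 and 6.98 with TFPIα and 6.19, 6.02 and 6.36 with TFPIβ, with steps of −0.31, −0.67 and −0.62 (−0.53, SE 0.101). WNT9A, a Wnt ligand, was higher with TFPIβ, at 6.17, 5.90 and 5.78 against 5.74, 5.65 and 5.41, with steps of 0.44, 0.26 and 0.37 (0.35, SE 0.084). Groups did not overlap for ATP1B1, CSF3 and WNT9A. These 5 genes were picked after their values were seen, and each had an adjusted p of 0.320.

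The next lists are tied to the known biology of the isoforms, and their counts at an unadjusted p under 0.05 stand against 6.19% of all probe sets higher and 9.21% lower. Of 15 measured genes of the tissue factor pathway and coagulation, 2 were higher and 2 lower (26.7% in either direction), with a median of 0.01. The lowest was TFPI2, a related Kunitz inhibitor, at 8.65, 10.22 and 10.74 with TFPIα, 7.50, 7.01 and 10.03 with TFPIβ and 8.56, 7.48 and 9.03 with empty vector (−1.69, SE 0.562). TFPI2 was lower in each pair, but the groups overlapped through TFPIβ replicate 3. The highest was F2R, the thrombin receptor PAR1, with 0.50 (SE 0.189). Of 11 genes of plasminogen activation and its serpins 10 were below 0, 7 were lower in all 3 pairs against 22.9% of all probe sets, and 3 (27.3%) were lower at that threshold, with a median of −0.17. SERPINE2, the serpin called protease nexin, gave 11.09, 11.63 and 11.76 with TFPIα and 10.29, 8.66 and 11.50 with TFPIβ (−1.34, SE 0.505).

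For the GPI anchor that only TFPIβ carries, 28 genes of anchor synthesis and transfer had a median of −0.09, with 2 lower and 0 higher at an unadjusted p under 0.05, near the background. These were PIGA, of the first step of anchor synthesis (−0.43, SE 0.146), and PIGL, of the step after it (−0.23, SE 0.084). Of 29 genes for GPI-anchored surface proteins 2 were higher and 2 lower, with a median of 0.09. CD24, a sialoglycoprotein, had a difference of 1.09 (SE 0.283), and NT5E, the ecto-5′-nucleotidase CD73, of −1.32 (SE 0.432). NT5E gave 7.64, 8.43 and 8.69 against 7.08, 5.67 and 8.04. Of 27 genes of heparan sulfate proteoglycans and their synthesis 1 was higher and 2 were lower, with a median of 0.06. The sulfatase gene SULF1, whose product removes sulfate groups from heparan sulfate, was higher with TFPIβ, at 9.59, 9.76 and 9.17 against 9.07, 8.74 and 8.79 (0.65, SE 0.188), and HS6ST2, which adds them, was lower with TFPIβ, at 6.29, 6.08 and 6.52 against 6.68, 6.60 and 6.78 (−0.39, SE 0.094). Neither gene overlapped between the groups. Among 9 clearance receptors of the LDL receptor family 1 was lower, LRP8 (−1.02, SE 0.379).

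Among the metabolic, stress and immune lists, that of cholesterol and fatty acid synthesis had the most lower members. There, 12 of 32 genes were lower and 0 higher at an unadjusted p under 0.05, against 9.21% and 6.19% of all probe sets. The median was −0.22, and none was at least 2-fold lower. The pair medians were −0.26, −0.25 and −0.01, and 17 of the 32 were below 0 in pair 3. The sterol reductase gene DHCR7 differed by −0.40 (SE 0.105). For the unfolded protein response, 2 of 37 were higher and 7 lower, and HYOU1, a chaperone of the endoplasmic reticulum, differed by −0.57 (SE 0.165). Of 48 interferon-stimulated genes 3 were higher and 2 lower with a median of −0.04, and of 31 genes of NF-κB signalling 1 was higher and 1 lower with a median of −0.08. The interferon and NF-κB lists had 10.4% and 6.45% of members at that threshold in either direction, below the sum of the shares over all probe sets. TNFAIP3, a feedback inhibitor of NF-κB, was the higher of these (0.52, SE 0.142), and TNIP1, its partner, the lower (−0.53). Of 57 cytosolic ribosomal protein genes 51 were above 0, with a median of 0.07, and 1 was higher at that threshold. In pair 3, 29 of the 57 were below 0. Of 64 oxidative phosphorylation subunits 2 were higher and 1 was lower.

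**Figure D5:**
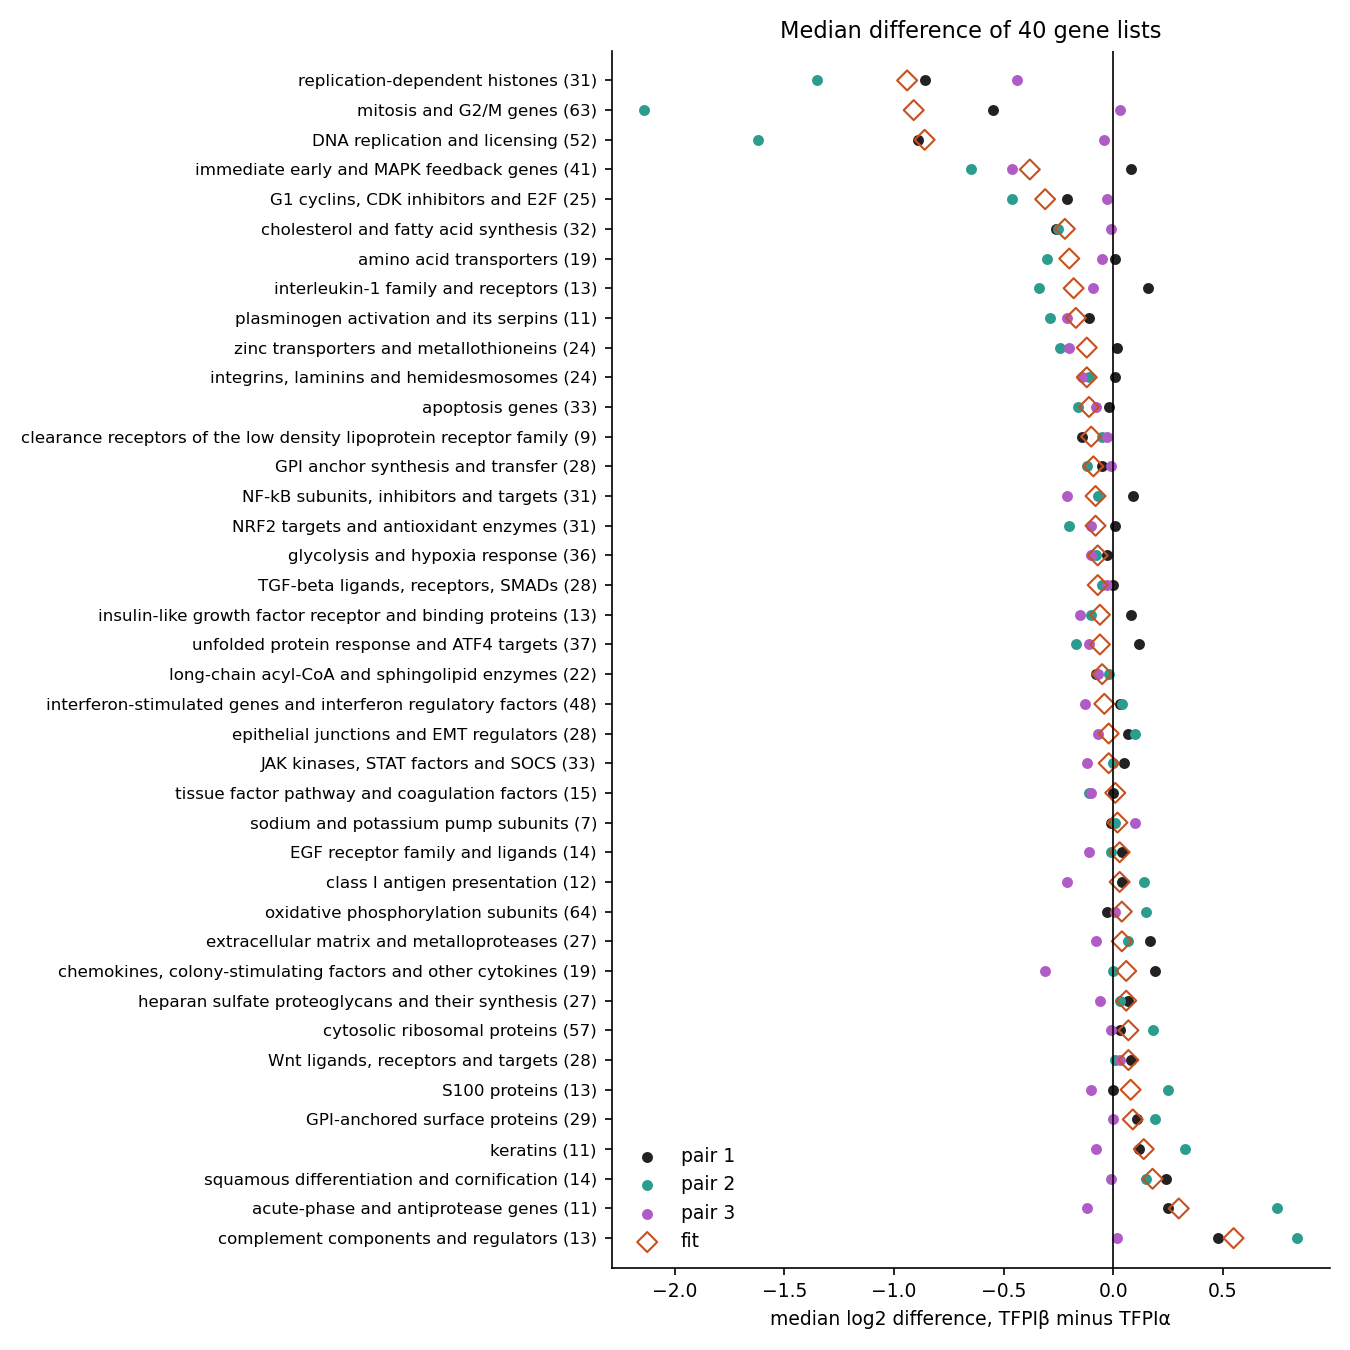
Median log2 difference (TFPIβ minus TFPIα, horizontal axis) of 40 gene lists with the number of measured members in parentheses, as fitted (open diamonds) and within each pair (coloured points). Histone, mitosis and replication genes are at the low end (medians −0.94, −0.91 and −0.86), complement genes at the high end (0.55), and the pairs spread widest for mitosis, from −2.14 to 0.03.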

How the data were processed

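The platform was the Affymetrix Human Gene 1.0 ST array, with total RNA of 1 sample on each of 9 arrays. The authors computed the signals by RMA within Partek software, whose version is not given in the sources used here, and deposited them on a log2 scale, 1 value for each transcript-level probe set. No source states the log base, which was taken from the spread of the signals (0.16 to 13.45). RMA puts the arrays on one distribution, so a shift shared by all transcripts cannot be seen, and array medians lay between 4.78 and 4.88. Here, the filter kept probe sets that reached 5 on at least 1 array, and the 3 groups were fitted together in limma 3.58.1 (R 4.3.3; lmFit and eBayes) with replicate number as a block, leaving 4 residual degrees of freedom and adding 2.66 from the prior. A call needed a 2-fold difference and a p under 0.05 after Benjamini-Hochberg adjustment over all probe sets kept. Permuting 3 arrays against 3 allows no exact p under 0.1 and was not used, and the number of arrays limits the precision.

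The replicate numbers come from the sample titles. Deviations of same-numbered arrays from their group means correlated at 0.137 to 0.594 over all 9 such pairs. Arrays that differed in both group and number correlated at −0.512 to 0.266, so the 2 ranges overlap. Deviations from a group mean also cancel within the group, which by itself lowers the values for unlike numbers. The numbers were taken to pair the arrays, which these ranges do not establish. On simulated data with known changes, the fit called 46.0%, 96.0% and 96.0% of probe sets changed by 2-, 4- and 8-fold, with 2 false calls among 17482. The changed probe sets were picked at random, and the noise was independent between probe sets. In the real data the median SE was 0.12, whereas CLSPN had an SE of 0.684 at a difference of −1.91. The simulated shares thus do not tell how often genes that vary this much, or vary together, would be called.

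Symbols came from the platform annotation, updated through RefSeq, and of several probe sets for a gene the brightest on average was taken. Of 40 gene lists and 7 marker lists, counts and medians were taken and no set test was run. Named genes were called probe sets with 1 symbol, the 12 highest and 12 lowest differences at an unadjusted p under 0.05 with 1 sign in all pairs, up to 4 members of each list with the lowest p, TFPI and the markers, and any other named gene is said to be chosen after its values were seen or is the extreme of its list. The comparison and the lists were chosen with earlier results of these data known. Genes whose probe set carries several symbols or none were not analysed here by name. Python 3.11.15 and matplotlib 3.10.9 made the figures.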

Additional observations from a re-analysis of the deposited data

How the results depend on the processing

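The alternatives were run for 177 named genes and the medians of 9 lists, and their direction held apart from 3 genes named below. The medians of the other lists, and genes shown only for their promoters or as extremes, were not run. The counts at an unadjusted p moved. The single called probe set was lost (0 called) without the replicate block and in a one-way model without variance moderation and without the block. It was also lost with only the TFPIβ and TFPIα arrays, with no filter and with a trended and robust prior. With a filter at 6 and with only probe sets of 1 symbol 0 were called. Both settings removed this probe set before any test, so its loss there was fixed in advance. It was kept with arrays centred on their medians and at an adjusted p of 0.1. Without the replicate block, 688 transcripts were higher and 821 lower at an unadjusted p under 0.05 (16 and 38 with 2-fold), and the lower members numbered 11 in DNA replication, 0 in mitosis, 11 in histones and 10 in MAPK feedback. In the one-way model, the counts were 583 and 666 (9 and 8 with 2-fold), with 2, 0, 5 and 6 lower members in those lists and 3 higher complement genes. With only the TFPIβ and TFPIα arrays, 79 transcripts were lower by 2-fold or more, with 2 lower mitotic genes, 10 lower MAPK feedback genes and 4 higher complement genes. No filter gave 50 transcripts higher by 2-fold or more, a filter at 6 gave 4 higher complement genes, probe sets with 1 symbol alone gave 510 higher and 15 higher by 2-fold or more, and fold changes from arithmetic means gave 43 lower by 2-fold or more. The cause was not tested, except that the settings with fewer arrays or fewer probe sets test less by construction.

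Leaving out each array or each replicate number in turn gave 0 to 1 called probe sets. At an unadjusted p under 0.05, 438 to 1414 were higher and 297 to 2255 lower, and 17 to 109 and 14 to 321 with 2-fold. The lower members then ranged from 0 to 51 in DNA replication, 0 to 61 in mitosis, 17 to 24 in histones and 2 to 26 in MAPK feedback, and the higher complement genes from 0 to 8. The 1 probe set called without TFPIα replicate 3 was a different one, also without a gene name. Of 177 named genes, 3 changed sign on leaving out arrays, each with a difference near 0 at one end: TFPI (−0.09 to 0.21), ATP1B3 (−0.02 to 0.37) and KRT16 (−0.02 to 1.45). None of these genes or medians changed sign under the settings that kept all arrays of both TFPI groups. The arrays give no depth, and signals near the filter of 5 are the least certain.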
